A study of Homo sapiens with 18 samples.

Results

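The 10 genes described here are NF-kB factors and their inhibitors: NFKBIA, NFKBIB, NFKBIE, NFKBIZ, TNFAIP3, NFKB1, NFKB2, RELB, REL and IRF1. They were taken by symbol from a table of 23622 genes. All 10 had a row, and all 10 were among the 15760 genes with enough counts to be tested. RNA-seq was done in A2780, a human ovarian cancer cell line with functional p53, and in Acis, its cisplatin-resistant derivative, which was selected by long exposure to cisplatin and was still given the drug at intervals while in culture. Each line was left untreated or was kept for 3 h in 200 µM cisplatin, a platinum drug that forms DNA adducts, with 3 libraries in each of the 4 groups. The libraries of a group came from wells seeded together, so the p-values measure the spread between wells. ATAC-seq of the same 4 conditions gave 1 list of accessible regions each.

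Library totals ran from 4130644 to 5072216 counts. Of 6 ovarian or Muellerian markers, FOLR1 alone had a row, and its level did not pass 5.89 normalized counts in any library. Of 6 epithelial markers, 3 had a row, and they differed in direction: KRT18 averaged 25.5 normalized counts in untreated A2780 and 143 in untreated Acis, KRT8 15.6 and 4.05, and EPCAM 3.55 and 0.733. Of 5 fibroblast or endothelial markers, 3 had a row, and PECAM1 and VWF had none. In untreated A2780 and untreated Acis, COL1A1, a fibroblast collagen, averaged 843 and 16.4, DCN 46.2 and 3.65, and LUM 11.9 and 1.85. Of 6 leukocyte markers, CD14 and CD68 had a row, and PTPRC, the defining one, had none. Their summed level was between 0 and 4.27 normalized counts in the untreated libraries and between 5.76 and 10.3 in the treated ones, below the filter for testing, and its part in the results below was not tested. In such bulk libraries, fewer cells that express a gene and less of its RNA per cell cannot be told apart.

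NF-kB is a family of dimeric transcription factors. RELA, RELB and REL carry their own activation domains, and NFKB1 and NFKB2 encode long precursors that are cut to the DNA-binding subunits p50 and p52. In resting cells the I-kappa-B proteins (NFKBIA, NFKBIB, NFKBIE) hold the dimers in the cytoplasm until the I-kappa-B kinase marks them for destruction. DNA damage can start this chain through the kinase ATM. Several members are targets of the pathway themselves and so form feedback loops, chief among them NFKBIA and TNFAIP3, the ubiquitin-editing enzyme A20. NFKBIZ encodes an atypical nuclear member of the I-kappa-B group that works with p50 at chromatin, and IRF1 is an interferon regulatory factor that shares many promoters with NF-kB.

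Since several of these genes are known targets of the pathway, their promoters are shown before their levels. RefSeq promoter windows (GRCh38.p14, 250 bases before to 50 bases after a start site) were found for 8 of the 10 genes, 13 windows in all, and none for NFKBIE and RELB. The 10-base NF-kB consensus, searched on both strands, was found in 10 of the 13 windows and in at least one window of each of the 8 genes, while 11.3% of 35116 human promoter windows hold it. Printed here are the 250 bases upstream of the start sites of the genes whose RNA differed most by line or treatment, NFKBIZ and IRF1, and of NFKBIA, the classical feedback inhibitor. NFKBIZ (plus strand) has one start 21.5 kb before the other, with windows at chr3:101827740-101827989 and chr3:101849264-101849513. The IRF1 window is chr5:132490774-132491023 and the NFKBIA window is chr14:35404750-35404999, both on the minus strand. Each runs 5′ to 3′ along the gene, and capitals mark the NF-kB consensus.
NFKBIZ, first start: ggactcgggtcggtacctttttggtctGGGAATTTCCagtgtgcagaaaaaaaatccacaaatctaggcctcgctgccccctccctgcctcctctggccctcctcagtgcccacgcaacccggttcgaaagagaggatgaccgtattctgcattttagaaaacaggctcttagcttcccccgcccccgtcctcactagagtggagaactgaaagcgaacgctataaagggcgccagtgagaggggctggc
NFKBIZ, second start: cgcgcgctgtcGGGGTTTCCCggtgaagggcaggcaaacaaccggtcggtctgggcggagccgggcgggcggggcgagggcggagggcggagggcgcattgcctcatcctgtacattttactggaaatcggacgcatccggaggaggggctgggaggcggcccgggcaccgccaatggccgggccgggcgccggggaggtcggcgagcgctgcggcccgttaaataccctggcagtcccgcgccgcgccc
IRF1: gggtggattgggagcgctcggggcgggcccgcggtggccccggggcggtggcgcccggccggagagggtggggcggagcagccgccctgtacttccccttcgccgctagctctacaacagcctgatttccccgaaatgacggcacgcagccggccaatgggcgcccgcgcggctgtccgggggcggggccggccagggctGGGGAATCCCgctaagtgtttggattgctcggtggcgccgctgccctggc
NFKBIA: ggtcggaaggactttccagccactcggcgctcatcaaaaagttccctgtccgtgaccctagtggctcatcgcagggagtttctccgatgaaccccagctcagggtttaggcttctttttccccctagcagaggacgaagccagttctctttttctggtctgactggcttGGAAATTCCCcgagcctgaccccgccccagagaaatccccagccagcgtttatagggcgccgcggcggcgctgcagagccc

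Counted to the first base of the match, the consensus began at -50 from the start of IRF1 and at -81 from that of NFKBIA, and at -239 and -223 from the second and first starts of NFKBIZ. The site upstream of NFKB1 (-49) had the same 10 letters as that at the first NFKBIZ start, GGGAATTTCC, and the same letters stood at -28 of NFKBIB. NFKB2 had the most matches over its windows, 3 in one and 2 in the next (GGGGCTTCCC at -176 and GGGACTTTCC at -21). In its window with 3, GGGAATTCCC and GGAATTCCCC overlap on opposite strands. NFKBIB also had 3 in one window, where GGAATTTCCC at -27 overlaps the match at -28 and GGGGGGCCCC lies at 38, after the start. TNFAIP3 had GGAAAGTCCC at -67 and GGAAATCCCC at -55, both read on the opposite strand. Of all windows, 2.04% hold at least 2 matches, overlapping ones included, and 5 of the 13 windows did. That of REL is among the 5, and its only matches, GGGAAATTCC at -47 and GGAAATTCCC at -46, overlap on opposite strands. The GC box (GGGCGG) was in 11 of the 13 windows and in 44.95% of all windows. The AP-1 motif (TGANTCA) was in 1 window, that of NFKBIB, and in 7.71% of all. Matches of a cAMP response element or a CArG box were in none of the 13. These are matches of letters, with no measure of binding.

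Cisplatin changed 7 of the 10 genes in A2780 and 5 in Acis at an adjusted p under 0.05 (edgeR quasi-likelihood test, Benjamini-Hochberg over all 15760 genes). In A2780, NFKBIZ, NFKBIE, NFKBIB, IRF1 and NFKBIA rose, NFKB1 and REL fell, and NFKB2, RELB and TNFAIP3 did not pass the test. Over all genes tested in A2780, 21.2% were higher and 28.2% lower. In Acis, NFKBIZ, IRF1, NFKBIE and NFKBIA rose and NFKB1 fell, against 9.35% of all genes higher and 12.4% lower. The median log2 fold change of the 10 genes was 0.26 in A2780 and 0.19 in Acis, and that of all genes was -0.01 and 0.01. These background shares depend on the scaling. With total counts as library size in place of TMM, 5302 genes were higher and 3060 lower in A2780, against 3347 and 4451, and 2346 and 1411 in Acis, against 1474 and 1962, and the median of all genes in A2780 moved to 0.10. The 5 rises in A2780, the 4 in Acis and both falls of NFKB1 passed under both scalings, and the fall of REL did not. The A2780 and Acis contrasts share no library, while those between the lines use the same libraries again.

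**Figure D1:**
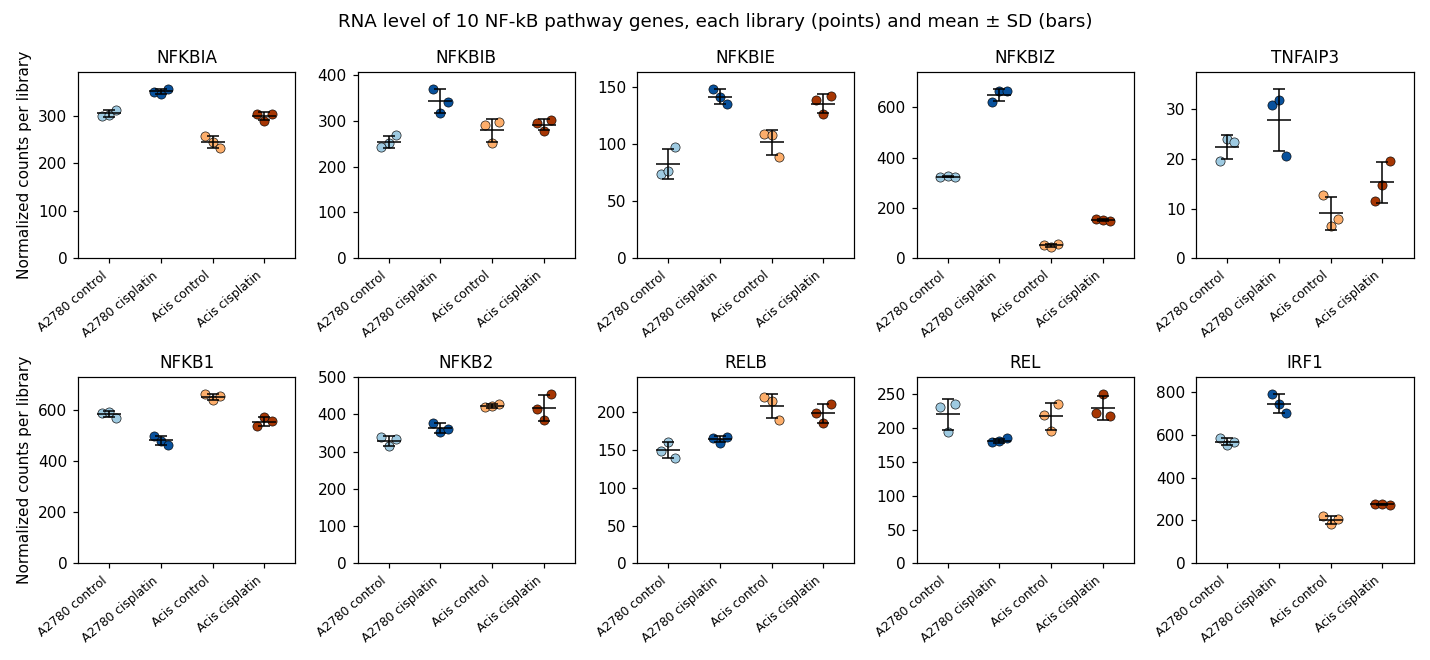
Normalized counts (counts brought to one library size with TMM factors) of the 10 genes in each of the 12 libraries, as points, with the mean and SD of each group of 3 as bars, on axes that start at 0. NFKBIZ lay between 322 and 327 in untreated A2780 and between 45.8 and 57.0 in untreated Acis, and its treated libraries lay above the untreated ones in both lines.

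NFKBIZ had the largest rise of the 10 genes in either line. Its levels in untreated A2780 were 324, 327 and 322 normalized counts, and 621, 664 and 664 after cisplatin. In Acis they were 54.1, 45.8 and 57.0 without the drug and 156, 152 and 147 with it. The treated and untreated libraries did not overlap in either line, and every treated Acis library lay below every untreated A2780 library. The change was 2.00-fold in A2780 (log2 1.00, SE 0.05, adjusted p = 6.67e-15) and 2.90-fold in Acis (log2 1.54, SE 0.11, adjusted p = 7.14e-11). NFKBIZ was the one member to pass the further threshold of an absolute log2 fold change of 1 upward, which 4.14% of all genes passed in A2780 and 1.64% in Acis. In A2780 its value sat on that threshold and ranged from 0.97 to 1.12 over the alternatives. In normalized counts, the mean difference was 325 in A2780 and 99.5 in Acis.

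Among the cytoplasmic inhibitors, NFKBIE rose most. It had 73.7, 75.9 and 97.1 normalized counts in untreated A2780 and 148, 141 and 135 in treated cells, a 1.73-fold rise (log2 0.79, SE 0.11, adjusted p = 6.37e-07). In Acis the untreated libraries had 108, 108 and 88.9 and the treated ones 138, 126 and 141 (1.33-fold, log2 0.41, SE 0.10, adjusted p = 0.00506). The groups did not overlap in either line. The Acis call was lost with DESeq2 (adjusted p = 0.0768).

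NFKBIA encodes the inhibitor that is remade first after NF-kB acts. Its levels in A2780 were 299, 302 and 313 normalized counts before and 351, 345 and 356 after cisplatin. In Acis they were 258, 244 and 231 before and 303, 289 and 304 after. All treated libraries were above the untreated ones of their line, but the rises were small, 1.153-fold in A2780 (log2 0.21, SE 0.06, adjusted p = 0.00411) and 1.22-fold in Acis (log2 0.29, SE 0.06, adjusted p = 0.000994). The A2780 call was lost with DESeq2 (adjusted p = 0.0868 over the genes DESeq2 kept, from 0.19 on the log2 scale).

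NFKBIB, the second classical inhibitor, rose in A2780 and not past the test in Acis. The A2780 libraries had 242, 252 and 269 normalized counts without the drug and 370.3, 318 and 342 with it (1.35-fold, log2 0.44, SE 0.07, adjusted p = 8.15e-06). The Acis libraries had 292, 251 and 297 without it and 295, 279 and 301 with it, which overlap (log2 0.06, SE 0.07, adjusted p = 0.634).

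TNFAIP3 was the least counted of the 10 genes. It had 19.6, 24.0 and 23.5 normalized counts in untreated A2780 and 30.9, 31.9 and 20.6 after cisplatin, and 12.7, 6.39 and 7.97 in untreated Acis and 11.5, 14.8 and 19.6 after cisplatin. Treated and untreated libraries overlapped in both lines. The estimates were 0.32 (SE 0.22, adjusted p = 0.248) and 0.75 (SE 0.33, adjusted p = 0.116) on the log2 scale, so a change of this size could not be resolved at this depth. The A2780 value was 0.21 without A2780 cisplatin replicate 2 and 0.49 without A2780 cisplatin replicate 3, and the Acis value 0.53 without Acis cisplatin replicate 3 and 1.08 without Acis control replicate 1.

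**Figure D2:**
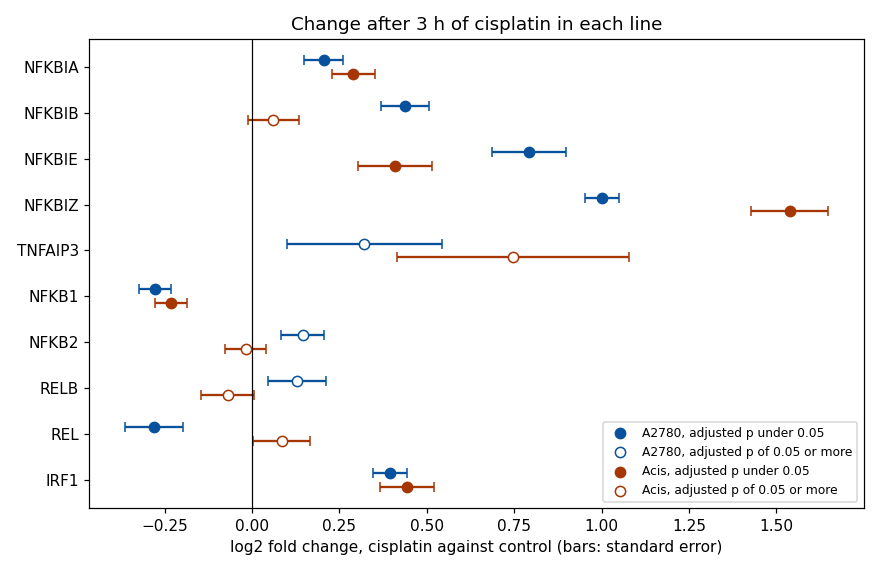
log2 fold change of each gene after cisplatin in A2780 (blue) and Acis (brown), with its standard error as bars and filled points for an adjusted p under 0.05. NFKBIZ lies at 1.00 in A2780 and at 1.54 in Acis, NFKB1 lies below 0 in both lines, and NFKBIB and REL are filled in A2780 and open in Acis.

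The genes of the subunits went otherwise. NFKB1 fell in both lines, from 587, 590.2 and 568 normalized counts to 499, 478 and 463 in A2780 and from 659, 638 and 652 to 535, 569.8 and 554 in Acis. The groups did not overlap. The log2 fold change was -0.28 in A2780 (SE 0.05, adjusted p = 1.52e-05) and -0.23 in Acis (SE 0.04, adjusted p = 0.000323).

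REL, which encodes the subunit c-Rel, had 231, 194 and 236 normalized counts in untreated A2780 and 179, 180.0 and 185 in treated cells. The groups did not overlap, and the log2 fold change was -0.28 (SE 0.08, adjusted p = 0.00707). With total counts as library size it was -0.16 and did not pass (adjusted p = 0.1103). In Acis, REL had 219.6, 196 and 236 normalized counts before and 223, 249.96 and 217 after cisplatin, which overlap (log2 0.08, SE 0.08, adjusted p = 0.538).

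NFKB2 and RELB encode the partners of the noncanonical arm of the pathway. NFKB2 had 338, 314 and 335 normalized counts in untreated and 378, 352 and 361 in treated A2780, groups that do not overlap, with a log2 fold change of 0.14 (SE 0.06, adjusted p = 0.0534). It passed in 7 of 20 alternatives, among them without A2780 cisplatin replicate 2 (adjusted p = 0.0479), without Acis cisplatin replicate 2 (0.0497) and without Acis cisplatin replicate 3 (0.0482). In Acis it had 419, 422 and 427 before and 413, 384 and 455 after (log2 -0.02, SE 0.06, adjusted p = 0.886). RELB had 149, 161 and 139.8 in untreated and 166, 159.7 and 167 in treated A2780 (log2 0.13, SE 0.08, adjusted p = 0.248, and log2 0.08 without A2780 control replicate 3), and 219.6, 215 and 190.3 in untreated and 199.5, 186 and 211 in treated Acis (log2 -0.07, SE 0.08, adjusted p = 0.631). The groups overlapped for RELB in both lines and for NFKB2 in Acis.

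IRF1 had 582, 551 and 567 normalized counts in untreated A2780 and 788, 744 and 700.1 after cisplatin. In Acis it had 222, 182 and 205 before and 277, 278 and 273 after. No treated library overlapped the untreated ones of its line. The rise was 1.31-fold in A2780 (log2 0.39, SE 0.05, adjusted p = 1.38e-07) and 1.36-fold in Acis (log2 0.44, SE 0.08, adjusted p = 0.000112), and the difference between the lines was 0.05 (SE 0.09, adjusted p = 0.787). As for NFKBIZ, all treated Acis libraries lay below all untreated A2780 libraries.

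The second question was how the lines differ before the drug. In untreated cells, Acis was lower for NFKBIZ, IRF1, TNFAIP3 and NFKBIA and higher for RELB, NFKB2, NFKBIE and NFKB1, 4 genes in each direction, and over all genes 28.2% were higher and 30.6% lower. NFKBIZ was 6.20-fold lower in Acis (log2 -2.63, SE 0.09, adjusted p = 1.46e-19). IRF1 was 2.79-fold lower (log2 -1.48, SE 0.07, adjusted p = 5.23e-17) and TNFAIP3 2.44-fold lower (log2 -1.29, SE 0.30, adjusted p = 0.000617). These 3 genes passed the threshold of 1 on the log2 scale downward, as did 12.2% of all genes. NFKBIA was 1.24-fold lower (log2 -0.31, SE 0.06, adjusted p = 8.07e-05).

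The genes that were higher in untreated Acis differed less. RELB was 1.39-fold higher (log2 0.47, SE 0.08, adjusted p = 1.33e-05), NFKB2 1.28-fold (log2 0.36, SE 0.06, adjusted p = 1.15e-05) and NFKB1 1.12-fold (log2 0.16, SE 0.04, adjusted p = 0.00333). For these 3 genes the libraries of the lines did not overlap. How many of all tested genes separate in this way was not counted, in this comparison or the others. NFKBIE was 1.25-fold higher (log2 0.32, SE 0.12, adjusted p = 0.0232), with libraries that overlap, and this call was lost with DESeq2 (adjusted p = 0.123), with the closest libraries merged (0.101), and without A2780 control replicate 1 (0.154) or 2 (0.115) or Acis control replicate 1 (0.119) or 2 (0.103). NFKBIB (log2 0.14, SE 0.08, adjusted p = 0.113) and REL (log2 -0.02, SE 0.08, adjusted p = 0.845) did not pass, though NFKBIB did without Acis control replicate 2 (0.0308).

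After cisplatin, 9 of the 10 genes differed between the lines, NFKBIZ, IRF1, TNFAIP3, NFKBIB and NFKBIA lower in Acis and REL, RELB, NFKB1 and NFKB2 higher, against 31.2% of all genes lower and 31.8% higher. NFKBIZ was 4.27-fold lower in treated Acis (log2 -2.10, SE 0.06, adjusted p = 7.78e-22) and IRF1 2.698-fold lower (log2 -1.43, SE 0.06, adjusted p = 2.81e-18), and both passed the further threshold of 1, as did 11.9% of all genes. TNFAIP3 was 1.82-fold lower (log2 -0.86, SE 0.24, adjusted p = 0.00305). REL was 1.27-fold higher (log2 0.34, SE 0.08, adjusted p = 0.000772). The calls of RELB (log2 0.28, adjusted p = 0.00315) and NFKB2 (log2 0.20, adjusted p = 0.00443) were lost with DESeq2 (0.0664 and 0.0675), and that of NFKB2 also without Acis cisplatin replicate 3 (0.0632). NFKBIE did not pass (log2 -0.06, SE 0.09, adjusted p = 0.586).

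Whether the lines responded differently was tested as an interaction, the log2 change in Acis minus that in A2780. It passed for 3 of the 10 genes, 2 upward and 1 downward, and for 13.4% of all genes upward and 5.48% downward. With total counts as library size the split over all genes turned from 2113 up and 863 down to 1463 and 1572. The value for NFKBIZ was 0.54 (SE 0.13, adjusted p = 0.00330) and passed in all 19 alternatives run. That for NFKBIB was -0.38 (SE 0.10, adjusted p = 0.00922), also past the test in all 19. That for REL was 0.36 (SE 0.12, adjusted p = 0.0297), but it missed the threshold in 9 of the 19, among them DESeq2 (0.151) and the fits without A2780 control replicate 1 (0.0904), A2780 control replicate 3 (0.0903), Acis control replicate 2 (0.102), A2780 cisplatin replicate 1 (0.0523) or Acis cisplatin replicate 2 (0.0950). NFKBIE had -0.38 (SE 0.15, adjusted p = 0.0782) and passed in 4, among them the fits without A2780 control replicate 3 (0.0281) and without Acis control replicate 3 (0.0366). For the other genes adjusted p was between 0.197 and 0.787.

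Levels were compared between genes per length of the canonical transcript (RPKM, made from the normalized counts). In untreated A2780 the order was NFKBIB (46.4 RPKM, SD 2.44), NFKBIA (42.5, SD 0.984), IRF1 (34.7, SD 0.953), NFKB1 (31.2, SD 0.662), NFKB2 (23.8, SD 0.944), NFKBIZ (18.0, SD 0.131), RELB (14.4, SD 1.00), NFKBIE (7.64, SD 1.20), REL (4.32, SD 0.447) and TNFAIP3 (1.04, SD 0.113), and no neighbors in it overlapped. In untreated Acis, NFKBIB again came first (51.1 RPKM, SD 4.60), NFKB1 (34.9) and NFKBIA (34.1) overlapped, and NFKBIZ came second to last (2.90 RPKM, SD 0.323). Cisplatin moved NFKBIZ to the fourth place in A2780 (36.0 RPKM, SD 1.39), past NFKB1 and NFKB2, and to the eighth in Acis (8.42 RPKM, SD 0.253). The scale rests on 1 transcript per gene.

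The members that fell in A2780 are the ones whose canonical transcripts have the longest span on the genome. The canonical transcript spans 116 kb in NFKB1 and 50.04 kb in REL, then 36.7 kb in RELB, and 16.1 kb or less in the other 7. Over all tested genes in A2780, the median log2 fold change was 0.21 for the 4336 genes with a span of 1 to 10 kb, 0.03 for the 5096 of 10 to 40 kb and -0.24 for the 3406 of 40 to 120 kb. In the last class 59.2% were lower and 2.44% higher. NFKB1 and REL, both at -0.28 in A2780, lay near its median. In Acis the medians were 0.09, 0.05 and -0.06, and in the last class 21.8% were lower and 2.82% higher. There NFKB1 was at -0.23 (SE 0.04), below the median of that class, and REL at 0.08 (SE 0.08), above it. NFKBIZ, with a span of 11.5 kb, is in the middle class in both lines, as is TNFAIP3. NFKB1 and REL are 2 genes, and the part of transcript span in their levels was not tested.

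**Figure D3:**
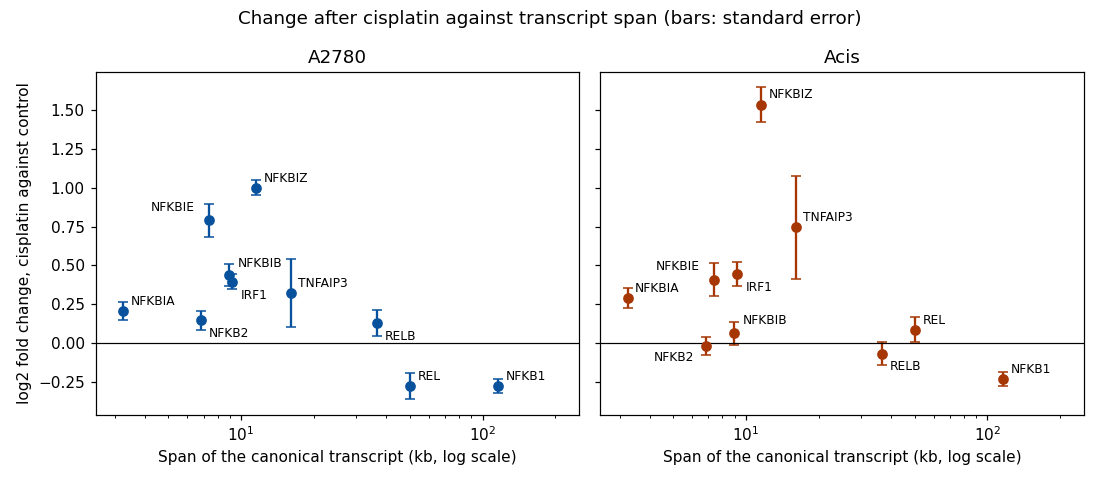
log2 fold change after cisplatin (bars are standard errors) against the span of the canonical transcript in kb on a log axis, A2780 at left and Acis at right. In A2780 both genes below 0 are those with the longest spans, REL (50.04 kb) and NFKB1 (116 kb), and in Acis NFKB1 is the lowest point.

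The rest of the pathway was taken as a list of 52 other signaling genes, of which 51 had a row and 50 were tested. In A2780, 10 rose, 17 fell and 23 did not pass, with a median log2 fold change of -0.12. In Acis, 3 rose, 11 fell and 36 did not pass, with a median of -0.02. Over all genes, 21.2% were higher and 28.2% lower in A2780 and 9.35% and 12.4% in Acis, so downward calls were the more frequent ones there too. With total counts as library size, 5302 genes were higher and 3060 lower in A2780, and 2346 and 1411 in Acis. RELA, the activating subunit missing from the 10 genes, rose in A2780 (log2 0.29, SE 0.06, adjusted p = 0.000247) and had -0.01 in Acis (SE 0.05, adjusted p = 0.913), with an interaction of -0.30 (SE 0.08, adjusted p = 0.00961).

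MAP3K14, the NF-kB-inducing kinase that drives the noncanonical arm, fell in both lines. Its mean was 458 normalized counts (SD 16.9) in untreated and 242 (SD 6.61) in treated A2780 (log2 -0.92, SE 0.06, adjusted p = 3.01e-12). In Acis it was 570.5 (SD 32.1) and 344 (SD 22.6), with a log2 fold change of -0.73 (SE 0.06, adjusted p = 2.50e-10). ATM, the DNA damage kinase, fell by 0.61 on the log2 scale in A2780 (SE 0.04, adjusted p = 6.10e-12) and by 0.13 in Acis (SE 0.04, adjusted p = 0.0271), and the interaction was 0.49 (SE 0.06, adjusted p = 2.27e-06). The Acis call of ATM was lost with total counts (adjusted p = 0.226), with the closest libraries merged (0.118), and without Acis control replicate 3 (0.131) or Acis cisplatin replicate 1 (0.197). ERC1, which binds the I-kappa-B kinase complex, fell by 0.56 in A2780 (adjusted p = 7.11e-12) and by 0.40 in Acis (adjusted p = 3.98e-08).

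Upward, MYD88, the adaptor of Toll-like and interleukin-1 receptors, went from 3.63 (SD 0.698) to 24.1 (SD 1.66) normalized counts in A2780 (log2 2.696, SE 0.35, adjusted p = 4.44e-07). In Acis it went from 6.45 (SD 3.07) to 10.4 (SD 4.43), which did not pass (log2 0.66, SE 0.39, adjusted p = 0.267), and the interaction was -2.03 (SE 0.58, adjusted p = 0.0137). MYD88 was counted high enough to be named through treated A2780 alone, the group where it is high, and was not tested under the filter of a mean of at least 50 counts. Its means in the other groups were 3.63 to 10.4, and whether it would pass the default filter without treated A2780 was not checked. TRAF6, the ubiquitin ligase after MYD88, rose in Acis (log2 0.48, SE 0.07, adjusted p = 1.04e-05) and had 0.14 in A2780 (SE 0.07, adjusted p = 0.0998), with an interaction of 0.33 (SE 0.10, adjusted p = 0.0203). The A2780 value passed with total counts (adjusted p = 0.00388), with the stricter filter (0.0190) and in a fit of the 2 groups alone (0.0380).

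Of 38 known NF-kB target genes outside the 10, 22 had a row and 14 were tested (NFKBID is also in the signaling list). The inflammatory genes TNF, IL6, CXCL8, CCL2 and VCAM1 are among those with no row in the table used here, and ICAM1 and CXCL10 had 35 and 58 counts over all 12 libraries, under the filter. In A2780, 3 of the 14 rose and 2 fell, and in Acis 3 rose and 1 fell, with medians of -0.04 and 0.08. Over all genes the shares were 21.2% higher and 28.2% lower in A2780, 9.35% and 12.4% in Acis, with medians of -0.01 and 0.01. GADD45B, a stress gene, rose from 237 (SD 13.2) to 569.4 (SD 13.1) normalized counts in A2780 (log2 1.26, SE 0.06, adjusted p = 1.96e-15) and from 304 (SD 21.5) to 377 (SD 15.1) in Acis (log2 0.31, SE 0.06, adjusted p = 0.000449), with an interaction of -0.95 (SE 0.09, adjusted p = 3.96e-08). IER3, a regulator of survival, rose in both lines by 0.61 and 0.40 (adjusted p = 1.30e-09 and 9.90e-05). XIAP, an inhibitor of caspases, fell in A2780 (log2 -0.57, SE 0.06, adjusted p = 5.54e-09) and had -0.02 in Acis (adjusted p = 0.864). SOD2, the mitochondrial superoxide dismutase, passed in Acis (log2 0.17, SE 0.06, adjusted p = 0.0288), a call lost in 7 alternatives, and had 0.12 in A2780 (adjusted p = 0.105), which passed with total counts (0.00174), with the stricter filter (0.0127) and with the 2 groups alone (0.0397). The 7 were DESeq2 (adjusted p = 0.299), no filter (0.0572), the closest libraries merged (0.0868), and the fits without Acis control replicate 1 (0.130) or 3 (0.138) or Acis cisplatin replicate 1 (0.0654) or 2 (0.0966).

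Beside IRF1, 11 genes of the interferon regulatory factors and their binding proteins were listed, of which 8 had a row and 6 were tested. In A2780, 4 rose and 1 fell, with a median log2 fold change of 0.30, against 21.2% of all genes higher and 28.2% lower and a median of -0.01. In Acis, 2 rose and none fell, with a median of 0.08, against 9.35% higher and 12.4% lower and a median of 0.01. IRF2BPL rose in both lines (log2 0.53, SE 0.05, adjusted p = 3.48e-10 in A2780 and 0.30, SE 0.04, adjusted p = 4.15e-06 in Acis), with an interaction of -0.23 (adjusted p = 0.0103). IRF2BP2, a corepressor of IRF2, rose by 0.23 and 0.13 (adjusted p = 1.70e-05 and 0.00942), the latter lost with DESeq2 (adjusted p = 0.211), with the closest libraries merged (0.0688), and without Acis control replicate 3 (0.0550) or Acis cisplatin replicate 1 (0.0565). IRF3 rose in A2780 (log2 0.38, SE 0.06, adjusted p = 1.37e-05) and had 0.03 in Acis (adjusted p = 0.782). IRF9 was 66.7 (SD 3.65) in untreated and 95.2 (SD 11.7) in treated A2780, and 17.0 (SD 1.09) and 20.5 (SD 1.71) normalized counts in Acis. It rose in A2780 (log2 0.52, SE 0.11, adjusted p = 0.000400) and did not pass in Acis (0.26, SE 0.24, adjusted p = 0.566).

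The genes whose pattern over the 12 libraries was most like that of NFKBIZ, by Pearson correlation of log2 CPM among 10897 genes, were ADM (r = 0.997), MAFG (0.991), CDKN1A (0.989), FOXC1 (0.986) and ZBTB39 (0.985). ADM encodes the peptide adrenomedullin and had means of 159, 284, 31.2 and 81.6 normalized counts in untreated A2780, treated A2780, untreated Acis and treated Acis. CDKN1A, the p53-induced inhibitor of the cell cycle, had 531, 957, 152 and 269. The genes most like NFKBIA were TRAM2-AS1 (r = 0.977), TMEM198B (0.972), GABPB1-AS1 (0.970), BBC3 (0.968) and ZNF425 (0.967). BBC3, the p53 target PUMA, had 128, 264, 59.2 and 99.4. The 12 points share 2 lines and 2 treatments, so such r values mostly describe 4 group means. Within the 10 genes, NFKBIZ had r = 0.972 with IRF1, 0.947 with NFKBIA and -0.863 with NFKB1.

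Chromatin at the starts of these genes was open in nearly every list. A listed ATAC-seq peak lay within 1000 bp of the start of the canonical transcript for all 10 genes in untreated A2780, treated A2780 and treated Acis, and for 8 in untreated Acis, where TNFAIP3 and NFKBIE had none. Of 20046 protein-coding starts, 56.3%, 57.8%, 53.6% and 50.2% had one in the same order. Those starts were not limited to genes with RNA in these cells, while all 10 genes had enough counts to be tested. With 1 list per condition, made from 3 replicates for controls and 2 after cisplatin, no difference between lists could be tested. The fold enrichment that MACS2 gives a peak over its local background had a median of 9.96 in the list of untreated A2780, 8.79 in treated A2780, 12.8 in untreated Acis and 11.04 in treated Acis.

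NFKBIB had the highest peak of the 10, with fold enrichments of 23.7 and 24.2 in untreated and treated A2780 and 25.4 and 29.5 in Acis, and ranks of 47, 34, 77 and 36 by q in lists of 24485 to 34979 peaks. The peak of NFKBIZ, at the second start, had a fold of 14.3 in untreated and 6.85 in treated A2780, and 15.8 and 16.3 in Acis. Within its own list it stood at percentiles 72.7 and 32.5 of fold in A2780 and 65.1 and 75.2 in Acis. IRF1 had folds of 12.3 and 4.75 in A2780 and 16.7 and 12.2 in Acis, at percentiles of 63.4, 11.3, 69.2 and 56.7. In treated A2780 the peaks of both genes were thus under the median of their list (8.79) while their RNA had risen, and in the other 3 lists they were above the median of their own list. The part of the unequal number of replicates in these folds was not tested.

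**Figure D4:**
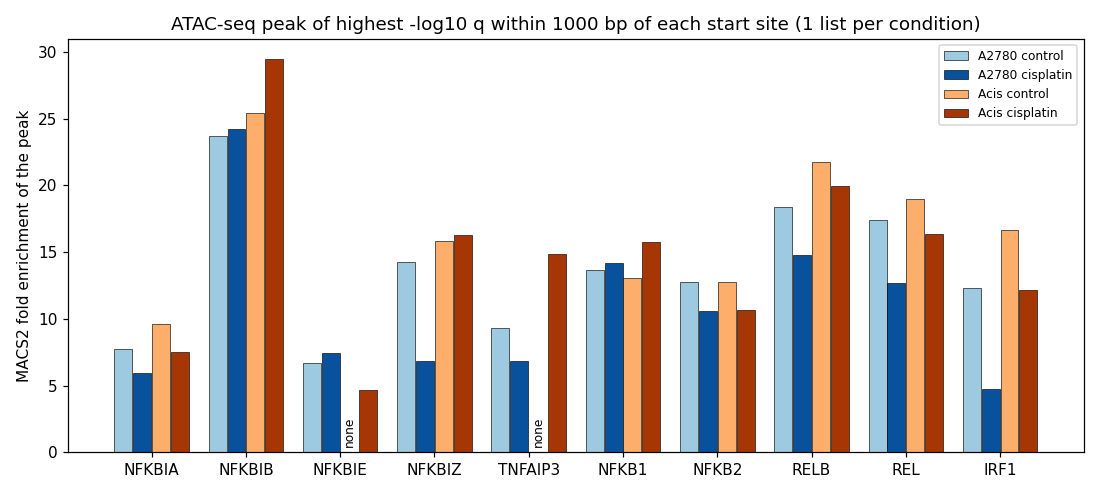
MACS2 fold enrichment of the peak with the highest -log10 q within 1000 bp of each start, in the 4 lists, with "none" where no peak was listed. NFKBIB is highest in all 4 lists (23.7 to 29.5), TNFAIP3 and NFKBIE have no bar in untreated Acis, and the bars of NFKBIZ (6.85) and IRF1 (4.75) are low in treated A2780.

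TNFAIP3 had a peak with folds of 9.28 and 6.87 in untreated and treated A2780, none in untreated Acis and one of 14.8 in treated Acis. NFKBIE had 6.72 and 7.48 in A2780 and 4.66 in treated Acis. At NFKB2, a broad region upstream was listed in all 4 conditions (folds of 12.7, 10.6, 12.8 and 10.7), and a second, weaker peak over the start of the canonical transcript was listed after cisplatin alone, in both lines, with folds of 4.36 in A2780 and 4.87 in Acis. That second peak covers the sites GGGGCTTCCC and GGGACTTTCC, and the upstream region covers the window with 3 matches. NFKB1 had its main peak downstream of the start, with folds of 13.7, 14.2, 13.1 and 15.7, and the consensus at -49 lay outside it. In all 4 lists this main peak covers a second RefSeq start of NFKB1, whose window holds no match of the consensus.

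**Figure D5:**
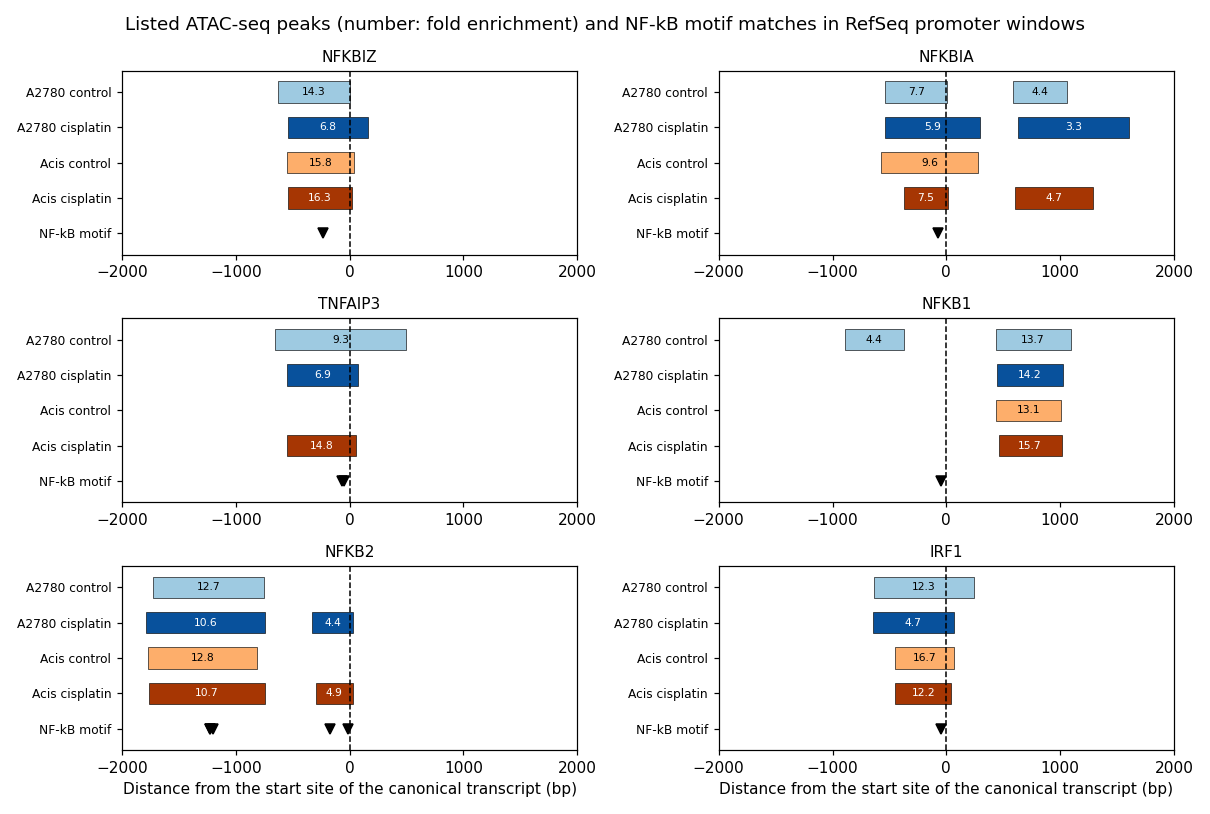
Listed ATAC-seq peaks (bars, with their fold enrichment) in the 4 conditions and NF-kB motif matches in RefSeq promoter windows (triangles) for 6 of the genes, by distance in bp from the start of the canonical transcript along the gene. For NFKBIZ, NFKBIA and IRF1 the triangle lies inside the peak of every list, and at NFKB2 a bar over the start appears in the 2 cisplatin lists, with folds of 4.36 and 4.87.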

How the data were processed

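The RNA-seq counts were deposited raw by the authors, who aligned single-end reads of stranded, ribosomal RNA-depleted libraries with STAR 2.7.3, removed PCR duplicates with Picard and counted on the reverse strand with HTSeq 0.11.1. The ATAC-seq reads were trimmed with cutadapt 1.15 and aligned with Bowtie2 2.4.1 to hg38. Each peak carries a fold enrichment, a -log10 p and a -log10 q from MACS2 as deposited by the authors, who kept peaks shared between all replicates of a condition. XR-seq was not analyzed here.

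The tests ran in edgeR 4.0.16 under R 4.3.3 (TMM, default filter on low counts, 4 groups over 12 libraries, 8 residual degrees of freedom, quasi-likelihood fit, Benjamini-Hochberg over 15760 genes). Calls used an adjusted p under 0.05. The SE given in the text and drawn in the figures is the absolute log2 fold change divided by the square root of its quasi-likelihood F statistic. It is not held above counting error and can lie below it, so it can overstate the precision. DESeq2 1.42.0, other scalings and filters, merged libraries and each library left out were alternatives. The code was tested on simulated data. The mean squared difference between 2 libraries of a group was 0.748 to 1.45 times that of counting noise. It was below 1 for all pairs of A2780 control and for some pairs of each other group. These were A2780 cisplatin replicates 2 and 3 (0.882), Acis control replicates 2 and 3 (0.955), and Acis cisplatin replicates 1 and 2 (0.789) and 1 and 3 (0.990). Removing duplicates can lower the variation of counts below that of independent draws. Its part here was not tested, and libraries that nearly repeat each other cannot be told apart from it. The libraries were kept as replicates, and merging the closest pair of each group was an alternative. Peaks were set against the start of the GENCODE canonical transcript, not the gene start as planned, since the IRF1 gene model begins far upstream. Motifs were searched in RefSeq promoter windows of GRCh38.p14. The 10 genes, the gene lists and the tests were chosen with earlier results of these data known. Other genes named in a list passed the test with a log2 fold change of 1 and 20 normalized counts, or had one of the 3 smallest adjusted p-values, and 5 genes each are named for likeness to NFKBIZ and NFKBIA among tested genes with a mean of at least 50 counts. RELA, the target and marker genes named for having no row or few counts, were chosen after their values were seen.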

Additional observations from a re-analysis of the deposited data

Results flagged for a closer look

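The cisplatin effect differed between Acis and A2780 for 3 of the 10 genes by the edgeR interaction test, given as the log2 change in Acis minus that in A2780. Over all genes, 13.4% passed this test upward and 5.48% downward. NFKBIZ had 0.54 (SE 0.13, adjusted p = 0.00330), with all 3 treated libraries above all 3 untreated ones in both lines. NFKBIB had -0.38 (SE 0.10, adjusted p = 0.00922), with treated above untreated libraries in A2780 and overlapping groups in Acis. REL had 0.36 (SE 0.12, adjusted p = 0.0297), with treated below untreated libraries in A2780 and overlapping groups in Acis. The call of REL was lost in 9 of 19 alternatives, among them DESeq2 (adjusted p = 0.151), while those of NFKBIZ and NFKBIB held in all 19.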

How the results depend on the processing

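The counts of changed members stayed within 1.5 times of those reported in every alternative of each comparison: 6 to 8 changed in A2780, 4 or 5 in Acis, 7 or 8 between untreated and 7 to 9 between treated lines, and 2 to 4 for the interaction. The cisplatin calls of NFKBIZ, IRF1 and NFKB1 held in both lines in all 20 alternatives. Most other calls that were lost or gained stand beside their values. RELB in A2780 passed with total counts (adjusted p = 0.0177). A replicate block made the A2780 call of NFKB2 pass (adjusted p = 0.0440) and changed no other call of a member. Correlations of same-numbered libraries ran from -0.205 to 0.282 and those of others from -0.199 to 0.267. Ranges that overlap cannot show whether the numbers pair the libraries. Acis control replicate 1 had 0.282 with A2780 cisplatin replicate 1 and 0.267 with Acis cisplatin replicate 3. A batch shared between groups was not tested, and the block would miss one that does not follow the numbers.

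Some values near 0 changed sign, none of them past the test. With total counts these were the cisplatin effects in Acis of NFKB2 (0.0363) and XIAP (0.0335) and the interactions of NFKB1 (-0.0172) and IRF1 (-0.0141). With the stricter filter (a mean of at least 50 counts) both interactions turned, to -0.00370 and -0.000632, and with the closest libraries merged so did NFKB2 in Acis (0.00773) and the interaction of IRF1 (-0.0228). With 1 library left out, the effect in Acis ran from -0.0197 to 0.101 for NFKBIB, from -0.0840 to 0.0376 for NFKB2, from -0.0869 to 0.0187 for XIAP and from -0.0123 to 0.0966 for IRF3. REL between untreated lines ran from -0.121 to 0.0378 and the interaction of IRF1 from -0.0265 to 0.124. In untreated Acis, 5 start bases themselves were under a peak, against 8 genes with one within 1000 bp.

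The background moved more. DESeq2 called 2024 genes higher in A2780 (3347 in edgeR), 537 higher in Acis (1474), and 1090 up and 294 down for the interaction (2113 and 863). With the closest libraries merged, 818 were higher in Acis and 1412 up and 496 down for the interaction, and the stricter filter gave 1427 down. Leaving out 1 library gave 525 to 926 down. Depth limits TNFAIP3 above all, whose SD between libraries was close to or below its counting error. The cause of these changes was not tested.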

Other observations

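Peaks farther from the starts were also listed. NFKBIA had one with its summit at -8667 or -8668 bp in all 4 lists, with folds of 14.2, 11.8, 14.7 and 10.1 in untreated and treated A2780 and untreated and treated Acis, each above that of the peak at its start (7.75, 5.94, 9.59 and 7.52). NFKB2 had one past the end of the gene, with its summit at 8319 or 8320 bp and folds of 11.2, 11.4, 12.6 and 12.7. The first start of NFKBIZ had folds of 11.9, 7.58, 12.2 and 11.98, again lowest in treated A2780. Behind NFKB1, a peak in the flank of the gene was listed in Acis alone, with folds of 13.6 without and 10.5 with cisplatin. Differences between the lists were not tested.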
